A study of Mus musculus with 6 samples.

Results

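The interleukin 1 family members examined here were 10 genes chosen by symbol: the ligands Il1a, Il1b, Il18 and Il33, the antagonist Il1rn, the binding protein Il18bp, and the receptors Il1r1, Il1r2, Il1rl1 and Il1rap. Of these 10, 8 were named by a probe set, 1 each, among the 19933 genes tested, and Il1r1 and Il1rl1 were not analysed here. Interleukin 1 family cytokines are alarm signals that barrier epithelia and myeloid cells hold ready or make rapidly upon damage. The receptors for IL-1, IL-33 and IL-36 pair with the co-receptor encoded by Il1rap. The signalling receptors of the family act through MYD88 on NF-kappaB. The pathway carries its own brakes, among them a receptor antagonist, a decoy receptor and a soluble binding protein. In the gut, the epithelium is known as a source of IL-18, and IL-33 acts on innate lymphoid cells, mast cells and T cells.

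The samples were epithelial cells freshly prepared from mouse jejunum, profiled on 6 Affymetrix Gene 1.0 ST arrays whose titles call them biological replicates. The 3 titled control carried R26-M2rtTA, a doxycycline-dependent transactivator at the Rosa26 locus. The 3 titled transgenic carried TRE-MSI2::R26-M2rtTA, so that the transactivator can drive an MSI2 transgene, which encodes an RNA-binding protein of the Musashi family. Both groups drank doxycycline for 24 hours, and the transactivator is not restricted to the epithelium by a tissue-specific promoter. The comparison asks how the transcripts differ after 1 day of induction.

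The transcript of the induced gene overlapped between the groups. Msi2 had log2 values of 11.30, 9.53 and 9.32 in the arrays labelled control and 11.23, 10.58 and 11.44 in those labelled transgenic, with a log2 fold change of 1.03 and an adjusted p of 0.257 in limma. This rests on control replicate 1, without which Msi2 was higher by 1.66 (adjusted p = 0.00958), and it also passed with array weights. Its paralog Msi1 rose by 5.66 on the log2 scale (limma, adjusted p = 0.000818) and ranked 4 among 19933 genes by log2 fold change. Msi1 had values of 7.20, 7.97 and 7.62 in the arrays labelled control and 13.44, 12.82 and 13.53 in those labelled transgenic. It passed in all 17 alternative fits. Groups are therefore named by their labels throughout. Over all probe sets, control replicate 1 correlated with the other controls by 0.981 and 0.982, and those correlated with each other by 0.9965. All 12 epithelial marker genes lay above the dim range, defined by Xist in male and Y-linked genes in female animals, which read 4.07 to 5.06. Of all 19933 genes, 1787 were higher and 1923 lower in the arrays labelled transgenic.

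Of the 8 members measured, Il1rn, Il33 and Il1rap rose in the arrays labelled transgenic, and none fell. The test was limma over all genes, with a Benjamini-Hochberg adjusted p under 0.05 as the threshold. In that fit 18.6% of all genes passed, 8.97% as higher and 9.65% as lower, and 3.58% passed with a rise of at least 2-fold, as these 3 members did. At an unadjusted p under 0.05, 4 members were higher and 0 lower. So low a p was common over all genes. The family gene Sigirr, at an unadjusted p of 0.0455 in limma, ranked only 6440 of 19933 by p. The 8 members had a median log2 fold change of 0.66, beside 0.02 over all genes tested, and 7 of the 8 had higher means, as did 54.2% of all genes. The count of members that rose was 4 without control replicate 1 and 1 without control replicate 3; it was 2 without control replicate 2, transgenic replicate 1 or transgenic replicate 3, and 2 with a block on sex. It was 5 with array weights, which added Il1r2 and Il1a. Over all genes, 1787 rose in the main fit, 3630 with array weights and 1068 with a block on sex. Without 1 array, 2663 rose (control replicate 1 left out), 476 (control replicate 2 or 3), 659 (transgenic replicate 1) or 523 (transgenic replicate 3). Counts thus shift with the fit over the whole array.

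**Figure D1:**
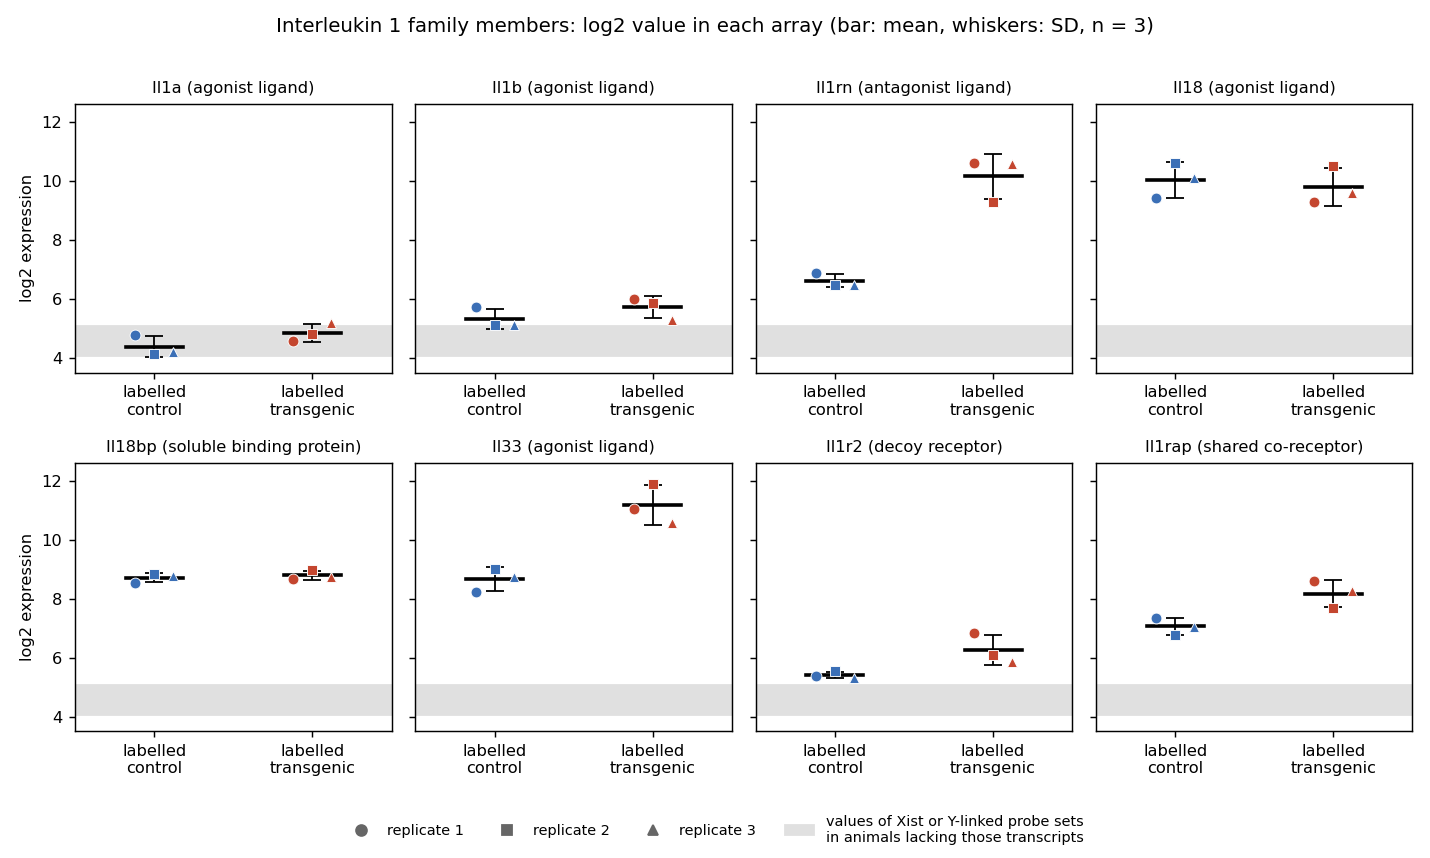
Log2 expression of the 8 measured members (panels) in each array labelled control (blue) or labelled transgenic (red), with the mean and SD of 3 arrays; the grey band is the dim range of 4.07 to 5.06. The groups are separate for Il1rn, Il33, Il1rap and Il1r2 and overlap for Il1a, Il1b, Il18 and Il18bp. Separate groups occurred in 37.0% of all genes, and in 19.5% with the transgenic arrays above.

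Il1rn, which encodes the interleukin 1 receptor antagonist, showed the largest rise among the members. Its log2 values were 6.87, 6.48 and 6.48 in the arrays labelled control. They were 10.62, 9.28 and 10.56 in those labelled transgenic. The groups were 2.41 log2 units apart at their nearest values, and transgenic replicate 2 was the lowest of the 3 that rose. The means were 6.61 ± 0.22 and 10.15 ± 0.76 (SD, n = 3 each), an 11.7-fold difference. The log2 fold change of 3.54 had a standard error of 0.37 and a 95% interval of 2.64 to 4.45, and passed in limma (adjusted p = 0.00454). It ranked 30 among 19933 genes by log2 fold change and 277 by p. An exact two-sided permutation test gave p = 0.1, the smallest that 3 against 3 arrays allow. In all 17 alternative fits it passed, with log2 fold changes from 3.31 to 3.98.

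The sequences before the annotated starts of Il1rn are shown because this gene rose most among the members. RefSeq (GRCm38.p6) gives 3 starts, the last of which lie close together, so the first and the third window are printed, each of 250 bases. Capitals mark matches on either strand to the letters GGGNNNNNCC, used here for NF-kappaB, and TGANTCA, used for AP-1.
Il1rn, chr2:24336610-24336859, + strand: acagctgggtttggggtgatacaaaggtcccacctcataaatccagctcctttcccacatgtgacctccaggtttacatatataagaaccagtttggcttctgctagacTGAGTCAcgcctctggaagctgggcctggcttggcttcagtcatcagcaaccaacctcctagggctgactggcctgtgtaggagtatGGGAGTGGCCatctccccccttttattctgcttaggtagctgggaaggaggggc
Il1rn, chr2:24345121-24345370, + strand: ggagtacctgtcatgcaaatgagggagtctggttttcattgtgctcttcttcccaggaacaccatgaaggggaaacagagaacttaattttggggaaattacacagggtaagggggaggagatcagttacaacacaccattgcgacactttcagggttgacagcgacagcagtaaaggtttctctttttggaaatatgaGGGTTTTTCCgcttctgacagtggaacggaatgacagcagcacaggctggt
The first window held 1 match to the AP-1 letters, 141 to 135 bases before the start, and 1 to the NF-kappaB letters, 54 to 45 bases before it. The third held 1 NF-kappaB match, 51 to 42 bases before the start. Of 32851 promoter windows of this length in the table, 45.8% held the NF-kappaB letters and 6.75% the AP-1 letters, so the first is a common match. No motif was found in the window of the second start, and a match describes letters only.

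The genes whose values across the 6 arrays were most like those of Il1rn were Trim6, Phlda1 and Krt23. Likeness was the root mean square difference of gene-centred log2 values, which was 0.17 for Trim6, 0.26 for Phlda1 and 0.28 for Krt23 among 19932 genes. Trim6, a tripartite motif protein gene, had values of 6.46, 5.77 and 5.74 in the arrays labelled control and 9.79, 8.30 and 9.80 in those labelled transgenic. As for Il1rn, control replicate 1 was the highest control and transgenic replicate 2 the lowest of its group. Trim6 was chosen by likeness over these same arrays, so this shared order is no separate result. The keratin gene Krt23 had a log2 fold change of 3.46 and the pleckstrin homology-like gene Phlda1 one of 3.40.

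Il33, which encodes an alarmin that is stored in the nucleus and released from damaged cells, stood 5.67-fold above the control level. The control arrays had log2 values of 8.23, 9.02 and 8.74. The transgenic arrays had 11.05, 11.89 and 10.56. No array of one group reached the other, and the nearest values were 1.54 log2 units apart. The means were 8.66 ± 0.40 and 11.17 ± 0.68 (SD, n = 3 each). This gave a log2 fold change of 2.50 (SE 0.37, 95% interval 1.60 to 3.41), which passed in limma (adjusted p = 0.0105). Unlike Il1rn, it was highest in transgenic replicate 2, so the 2 genes did not follow each other within that group. Il33 passed in 16 of 17 alternative fits, and without control replicate 3 it had a log2 fold change of 2.55 with an adjusted p of 0.0508.

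Il33 is known to be transcribed from more than 1 start, and the 2 RefSeq windows (GRCm38.p6, 250 bases before each) are shown because the array gives 1 value for the gene, which was not divided between starts. Capitals mark the only match found, to the letters TTGCNNAA used for C/EBP, which 9.56% of all windows held.
Il33, chr19:29924863-29925112, + strand: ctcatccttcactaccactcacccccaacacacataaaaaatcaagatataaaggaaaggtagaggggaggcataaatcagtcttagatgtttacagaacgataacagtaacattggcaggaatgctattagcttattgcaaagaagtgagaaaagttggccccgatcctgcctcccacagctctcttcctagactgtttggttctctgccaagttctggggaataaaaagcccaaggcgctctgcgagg
Il33, chr19:29945540-29945789, + strand: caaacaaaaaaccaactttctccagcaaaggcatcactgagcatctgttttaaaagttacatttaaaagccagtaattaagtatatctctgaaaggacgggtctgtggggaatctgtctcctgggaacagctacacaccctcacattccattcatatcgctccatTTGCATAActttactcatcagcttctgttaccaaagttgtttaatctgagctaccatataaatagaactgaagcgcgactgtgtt
The match lay 85 to 78 bases before the second start. Neither window held the letters used for NF-kappaB, AP-1 or STAT (TTCNNNGAA), which says only that these letters are absent from these bases.

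Il1rap, the co-receptor shared by the IL-1, IL-33 and IL-36 receptors, was 2.17-fold higher. Its log2 values were 7.35, 6.78 and 7.05 in the arrays labelled control and 8.58, 7.68 and 8.26 in those labelled transgenic. The groups did not overlap, but the gap was only 0.32 log2 units, between control replicate 1 and transgenic replicate 2. The log2 fold change of 1.11 had a standard error of 0.26 and a 95% interval of 0.48 to 1.75 (limma, adjusted p = 0.0339). The call was lost without control replicate 2 (adjusted p = 0.117), control replicate 3 (0.115), transgenic replicate 1 (0.0919) or transgenic replicate 3 (0.12), as well as under a block on sex (0.0564). Its promoter window held 6 matches to the NF-kappaB letters on either strand, some of which overlap one another almost fully. Such letters occurred in 45.8% of all windows, and a match describes letters only.

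The decoy receptor gene Il1r2, whose product binds interleukin 1 without signalling, had higher values that did not pass. The arrays labelled control had log2 values of 5.39, 5.53 and 5.31, and those labelled transgenic had 6.84, 6.09 and 5.84. The groups did not overlap, and transgenic replicate 1 stood above the other arrays. Non-overlapping groups occurred in 37.0% of all genes, and in 19.5% with the transgenic arrays above. Its log2 fold change of 0.85 (SE 0.26, 95% interval 0.22 to 1.47) had an adjusted p of 0.0691 in limma. Blocking on the replicate number gave 0.0436, array weights 0.0434 and a robust intensity trend 0.0494, and the highest value among the alternatives was 0.2, without control replicate 3.

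**Figure D2:**
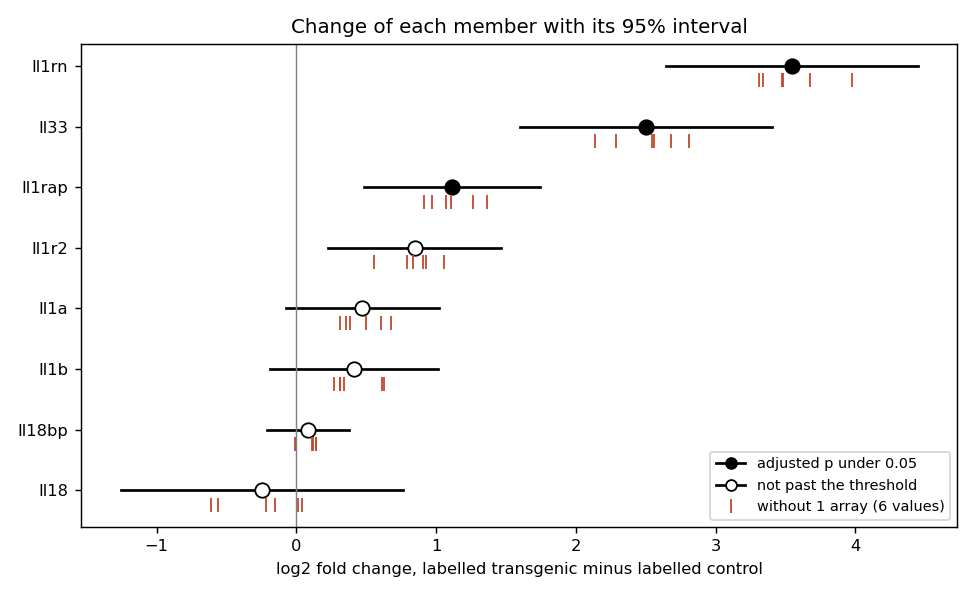
Log2 fold change of each member, labelled transgenic minus labelled control (horizontal axis), with its 95% interval from limma; filled points passed the threshold, and red ticks are the 6 values with 1 array left out. Il1rn at 3.54, Il33 at 2.50 and Il1rap at 1.11 passed, and the interval of Il18 spans -1.26 to 0.76.

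The agonist genes Il1a and Il1b had low values and did not pass. Il1a, whose product acts as an alarmin from dying cells, had log2 values of 4.79, 4.14 and 4.20 in the control arrays and 4.58, 4.80 and 5.17 in the transgenic ones. In 5 of 6 arrays it lay within the dim range, so a change in level could hardly be read. Its log2 fold change was 0.47 (95% interval -0.08 to 1.02, limma adjusted p = 0.207), and it passed without control replicate 1 (0.68, adjusted p = 0.0407) and with array weights (0.67, adjusted p = 0.0282). Il1b, the secreted agonist made mainly by myeloid cells, had 5.72, 5.11 and 5.11 in the control arrays and 6.01, 5.87 and 5.29 in the transgenic arrays. Its groups overlapped, and the log2 fold change of 0.41 (95% interval -0.19 to 1.01) had an adjusted p of 0.317 in limma and passed in none of its 15 alternative fits.

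Within each array, the antagonist was also set against both agonists, which the design could not call since 3 against 3 arrays allow no p below 0.1. The log2 value of Il1rn minus that of Il1a was 2.08, 2.34 and 2.29 in the control arrays and 6.04, 4.48 and 5.40 in the transgenic arrays. The group means of this difference were 3.07 apart (SE 0.46), which mostly restates the rise of Il1rn, since Il1a was dim in 5 of 6 arrays. Against Il1b they were 3.13 apart (SE 0.55). Levels of different probe sets cannot be set against each other, so only these group differences are given. For both, the exact two-sided permutation test gave p = 0.1, or 0.15 adjusted over 3 such pairs.

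Il18 and its soluble inhibitor Il18bp differed by less than the spread between arrays. Il18, an epithelial cytokine activated by caspase 1, had log2 values of 9.41, 10.61 and 10.09 in the arrays labelled control and 9.27, 10.51 and 9.59 in those labelled transgenic. Both groups spanned more than 1 log2 unit and overlapped. Its log2 fold change of -0.25 (SE 0.42) had an adjusted p of 0.742 in limma. Each transgenic array lay below the control array of the same number, by 0.14, 0.10 and 0.50, and blocking on that number gave a standard error of 0.11 and an adjusted p of 0.195. Without control replicate 2 or transgenic replicate 1 the sign turned, to 0.04 and 0.01. The 95% interval of -1.26 to 0.76 leaves room for a more than 2-fold fall.

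Il18bp, whose product captures IL-18 before it reaches its receptor, varied little. It had 8.53, 8.82 and 8.76 in the control arrays and 8.67, 8.97 and 8.72 in the transgenic arrays. The log2 fold change of 0.08 had a 95% interval of -0.21 to 0.38 (limma, adjusted p = 0.701), the narrowest interval among the members. Its sign turned in 3 alternatives, with values down to -0.02. Relative to Il18 within each array it changed by 0.33 with a standard error of 0.38 (exact two-sided permutation p = 0.4, also after adjustment over the 3 pairs).

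Members also differed among the control arrays. Control replicate 1 lay above the mean of the other controls in Il1a by 0.62, in Il1b by 0.60, in Il1rap by 0.44 and in Il1rn by 0.39. It lay below them in Il18 by 0.95, in Il33 by 0.65 and in Il18bp by 0.26. For Il1a, Il1b, Il1rap, Il1rn and Il18 this array thus stood on the side of the transgenic group. For Il33 and Il18bp it stood on the opposite side. The group differences of Il18 and Il18bp were themselves within the spread between arrays. Among the transgenic arrays, replicate 2 had the lowest Il1rn and Il1rap and the highest Il33, Il18 and Il18bp.

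Among 11 other family genes, Il1f9, which encodes IL-36 gamma, an epithelial agonist, had a larger rise than any of the 8 members. Its log2 values were 4.70, 4.34 and 4.21 in the arrays labelled control and 9.53, 9.51 and 8.36 in those labelled transgenic. All control values lay in the dim range and no transgenic value did, so the size of the rise is uncertain while the separation is wide. Its log2 fold change was 4.71 (SE 0.34; limma, adjusted p = 0.00184), and it passed in all 16 alternative fits that held it. Il1f6, which encodes IL-36 alpha, passed with a log2 fold change of 0.32. All 6 of its values, however, lay in or below the dim range. Its call was lost in each fit without 1 array except that without control replicate 1. The adjusted p in limma reached 0.127 there, without control replicate 2, and the call was also lost under a block on sex (0.0733).

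No other gene of this list passed, and the list's median log2 fold change was 0.05. Il1rl2, the receptor for IL-36, lay in the dim range in all 6 arrays, between 4.18 and 4.36. The receptor subunits for IL-18, Il18r1 and Il18rap, did so as well. Il1f5, which encodes the IL-36 receptor antagonist and is the counterpart of Il1rn in that branch, had a log2 fold change of 0.08 (95% interval -0.16 to 0.32, limma adjusted p = 0.646). Sigirr, an inhibitory receptor of the family, was at -0.43 (adjusted p = 0.141, and 0.0261 when blocked on replicate number). Il1f5 and Sigirr were named after their values were seen.

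**Figure D3:**
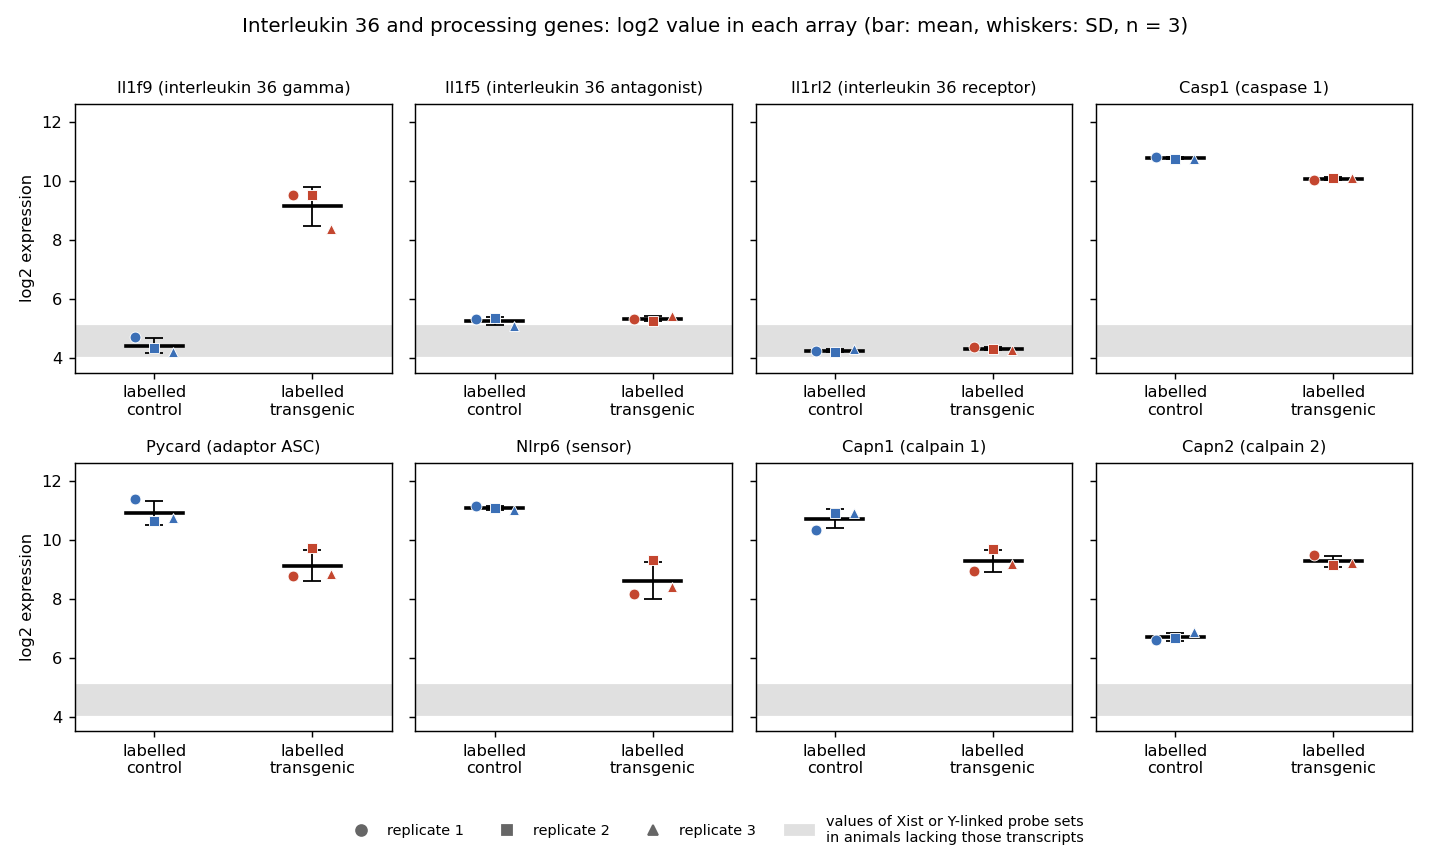
Log2 expression of 3 IL-36 genes and 5 processing genes in each array, drawn as for the members, with the mean and SD of 3 arrays and the dim range in grey. Il1f9 leaves the grey band only in the transgenic arrays, Casp1, Pycard, Nlrp6 and Capn1 are lower there, and Capn2 is higher. Il1f5, Il1rl2, Pycard, Nlrp6 and Capn1 were chosen after their values were seen, and most genes of the processing list are not drawn.

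Among genes that process the ligands, more were lower than higher. Of 24 measured inflammasome and processing genes, 8 fell and 2 rose, and the median was -0.04. Over all genes, 9.65% were lower and 8.97% higher. The count that rose lies near the share of all genes that rose. Casp1, the protease that activates IL-1 beta and IL-18, had values of 10.83, 10.74 and 10.75 in the control arrays and 10.03, 10.10 and 10.10 in the transgenic arrays. This 1.62-fold fall was small but exceeded the spread (log2 fold change -0.70, SE 0.07, limma adjusted p = 0.00401). Naip5 and Naip6, sensors of bacterial flagellin, had log2 fold changes of -2.13 and -1.62. Sequence similarity between these paralogs makes each value on its own uncertain.

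Chosen after their values were seen, Nlrp6, an epithelial inflammasome sensor, was at -2.47, the adaptor Pycard at -1.79 and the calpain Capn1 at -1.44. Pycard lost its call without control replicate 2 or 3 or transgenic replicate 1 or 3 (adjusted p up to 0.0718), and Capn1 without control replicate 2 or 3 or transgenic replicate 3 (up to 0.0653). Capn2, another calpain, a class of proteases that cleave pro-IL-1 alpha, rose by 2.55 with a standard error of 0.12. The DNA sensor Aim2 rose by 1.24 (adjusted p = 0.0404), but not without control replicate 2 or 3 or transgenic replicate 1 or 3 (adjusted p up to 0.138). Nlrp3 lay in the dim range in all 6 arrays. Gsdme, among the 8, had a second probe set at 0.48, opposite in sign to the -0.52 of the one used. The count of 8 was 4 without control replicate 3 or transgenic replicate 3 and 5 without control replicate 2 or transgenic replicate 1, and that of 2 was 1 without control replicate 2 or 3 or transgenic replicate 1 or 3 and 4 when blocked on replicate number.

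Downstream of the receptors, 9 of 24 measured signalling genes rose and 2 fell, with a median of 0.20. Beside these counts, 8.97% of all genes were higher and 9.65% lower. Traf6, the ubiquitin ligase that relays the receptor signal, rose by 1.41, the adaptor Tab2 by 1.11 and the NF-kappaB subunit Rela by 0.80. The kinase genes Map2k6 and Mapk9 had log2 fold changes of -1.02 and -0.76, and Mapk9 lost its call without control replicate 2 or 3 or transgenic replicate 1 or 3 (adjusted p up to 0.0829). Only 3 genes of this list rose without control replicate 2 or transgenic replicate 3, and 4 without control replicate 3, without transgenic replicate 1 or with sex as a block. The 2 that fell became 5 when blocked on replicate number or with array weights, 4 without control replicate 1, and 1 without control replicate 2 or 3 or transgenic replicate 1 or 3.

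Of 28 genes known to respond to IL-1, 6 rose and none fell, with a median of 0.29. The shares over all genes were 8.97% higher and 9.65% lower. Icam1, an adhesion molecule, rose by 1.36, and Nfkbia, the inhibitor that NF-kappaB itself induces, by 1.25. The serum amyloid gene Saa1 rose by 3.69, from control values in the dim range, and lost its call without control replicate 2 (adjusted p = 0.0679) or 3. Cross-hybridisation with other serum amyloid genes makes its value uncertain. Tnf and Il6 had log2 fold changes of -0.01 and 0.01, and Il6 lay in or below the dim range in every array. The count of 6 was 2 without control replicate 2 or 3 and 9 with array weights. These genes answer many other stimuli too.

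A list of cytokines linked to cells that respond to IL-18 or IL-33 had 11 measured genes, and none passed in limma. Not all are products of such cells, as the list also held Il12a, Il12b, Il25 and Tslp. Il22 and Areg were listed but not measured. At an unadjusted p under 0.05, 1 was higher (Il12a, log2 fold change 0.22) and 0 lower, and with array weights 1 passed as higher. So low an unadjusted p was common over all genes, as the rank of Sigirr given above shows. Ifng, which IL-18 induces in lymphocytes, was at -0.19 (95% interval -0.45 to 0.07), and Il13, which IL-33 induces, at 0.09 (95% interval -0.16 to 0.33). Il5 and Tslp lay in or below the dim range in all arrays, and Il4 in 5 of 6. The list means were 5.24 to 5.28 in the control arrays and 5.24 to 5.33 in the transgenic arrays. These lie near the upper edge of the dim range, which limits the reading.

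**Figure D4:**
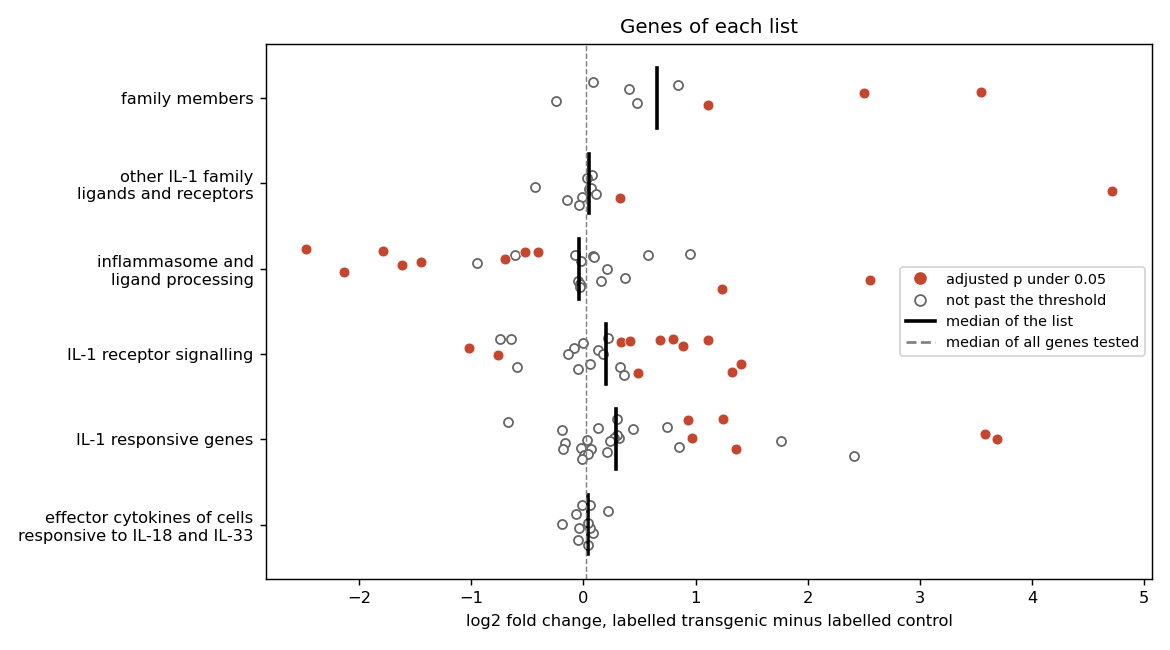
Log2 fold change, labelled transgenic minus labelled control, of every measured gene of 6 lists (rows); red points passed the threshold, open points did not, black bars are list medians and the dashed line is the median of all genes, 0.02. Il1f9 lies farthest to the right at 4.71, and the processing list spreads to both sides.

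Markers of other cells were read beside these results, since several can make or hold family transcripts. In bulk samples, fewer cells of a type and less RNA per cell cannot be told apart. Beside the marker counts given here and below, 8.97% of all genes were higher and 9.65% lower. Of 13 neutrophil genes 3 rose and none fell. Their list mean was 5.06 to 5.07 in the control arrays, near the upper edge of the dim range, and 5.35 to 5.51 in the transgenic arrays. Ctsg and Ngp lay in the dim range in all arrays, and Cxcr2, 1 of the 3 that rose, in 5 of 6. Of 15 macrophage and monocyte genes 2 rose and none fell, with means of 5.99 to 6.21 and 6.26 to 6.46. The macrophage count lies near the share of all genes that rose. Adgre1 and Ccr2 lay in or below the dim range in all arrays. The higher means of these 2 lists accompany the rise of Il1rn and the higher values of Il1r2, and their part in either was not tested. The 3 neutrophil calls became 1 without control replicate 2 or 3 or transgenic replicate 3, or with sex as a block, and the 2 macrophage calls 1 without control replicate 2 or transgenic replicate 3 and 3 without control replicate 1.

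Fibroblast, smooth muscle and endothelial cells are known sources of IL-33. Of 13 fibroblast and smooth muscle genes none rose and 1 fell, with means of 6.16 to 6.50 in the control arrays and 6.20 to 6.36 in the transgenic arrays. Vim, the 1 that fell, did not pass under a block on sex or without control replicate 2 or 3 or transgenic replicate 1 or 3. Of 11 endothelial genes 1 rose, Tie1 by 1.30, and the means were 5.43 to 5.47 and 5.50 to 5.54. Kdr, Tek and Emcn, 3 defining endothelial genes, lay in the dim range in all arrays. The highest fibroblast mean was that of control replicate 1, and the other controls had 6.16 and 6.22. The part of these cells in the rise of Il33 was not tested.

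Among possible responders, 10 of 12 T cell and intraepithelial lymphocyte genes fell, with means of 7.90 to 8.38 and 6.12 to 6.97. The count of 10 was 3 without control replicate 2 or 3 or transgenic replicate 3 and 6 without transgenic replicate 1. Over all genes, 1923 fell in the main fit, 500 without control replicate 2 and 476 without control replicate 3. Without transgenic replicate 1 or 3, 711 and 551 fell. Such cells also hold processing genes, more of which fell than rose, and signalling genes, more of which rose than fell. The part of these cells in either list was not tested. Of 14 mast cell and innate lymphoid genes 1 rose and 1 fell: Gata3 rose by 1.59 and Kit fell by 1.01. The fall of Kit was no call without control replicate 2 or 3 or transgenic replicate 3. Of 7 B cell and plasma cell genes none passed in limma, and 0 had an unadjusted p under 0.05. Of the 12 epithelial genes 2 rose and 3 fell, with list means of 12.05 to 12.18 and 11.91 to 12.16. None of the 3 passed as lower without control replicate 2 or 3 or transgenic replicate 3, and 1 did without transgenic replicate 1 or under a block on sex.

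**Figure D5:**
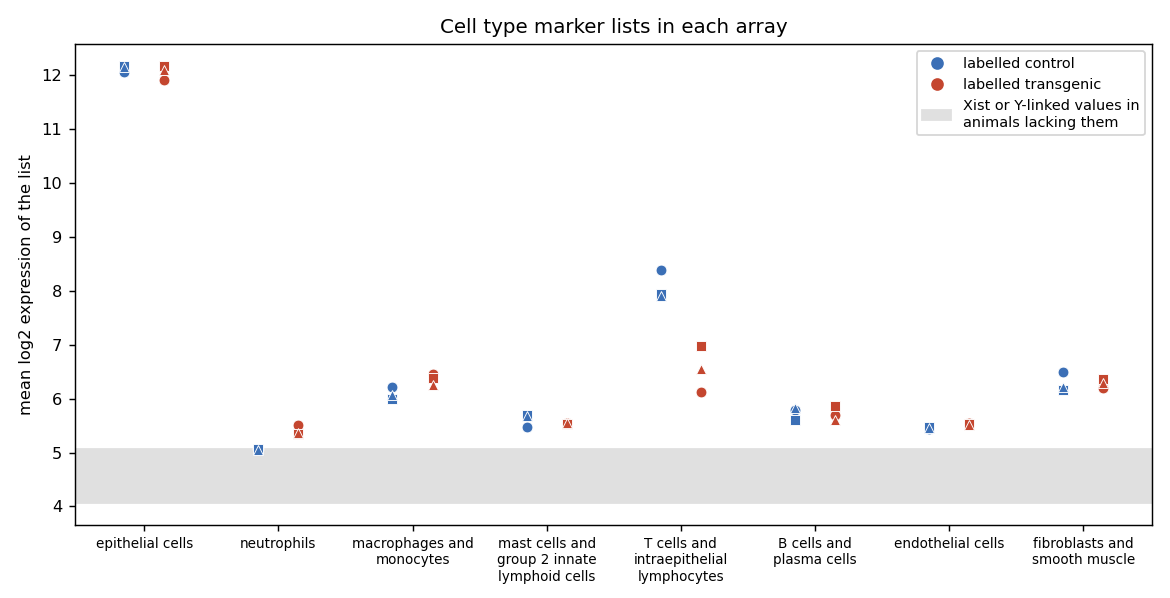
Mean log2 expression (vertical axis) of each marker list (horizontal axis) in every array labelled control (blue) or transgenic (red); circles, squares and triangles are replicates 1, 2 and 3, and the grey band is the dim range. The lymphocyte list is lower in the transgenic arrays (6.12 to 6.97 against 7.90 to 8.38), and the neutrophil list is higher (5.35 to 5.51 against 5.06 to 5.07).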

How the data were processed

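The 6 arrays were deposited by the authors as a table of log2 expression values, a row for each probe set and a column for each array. The submitters' processing notes name Partek and RMA, without versions. RMA normalizes between arrays and compresses changes of dim probe sets, and neither detection flags nor the genome build are given in the sources used here. Probe sets naming 1 gene (21780 of 28350) were used, with symbols updated through gene identifiers, and each gene was read by its probe set with the highest mean, with no filter.

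The group difference was fitted in R 4.3.3 with limma 3.58.1 (lmFit and eBayes with no covariate), two-sided and adjusted by Benjamini-Hochberg over 19933 genes, and intervals and standard errors are those of that fit. The labels call the samples biological replicates. Precision is limited by there being 6 arrays.

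The members and the gene lists were chosen with earlier results of these data known. Named genes were all members, from each of 5 pathway lists the 3 passing genes with the lowest p in each direction, and the 3 genes most like the member with the largest rise. Others are said to have been named after their values were seen, as were Tie1, Gata3, Kit and the genes given as dim or at no change. Deviations from the group means correlated by 0.52, 0.41 and 0.13 for the pairs of equal replicate number, which the titles give, and by at most 0.32 for unequal numbers (control 3 with transgenic 2). The block on that number was an alternative. The sex of the animals was read from Xist and Y-linked genes, which gave females as control replicates 1 and 3 and transgenic replicate 3. A planned comparison of Il1r2 with Il1r1 was not made, since Il1r1 was not analysed here.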

Additional observations from a re-analysis of the deposited data

How the results depend on the processing

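The directions of Il1rn, Il33, Il1rap and Il1r2 were kept in every alternative fit run for them, and none of the named genes with alternative fits that passed turned its sign. Members that rose numbered 5 with array weights, 1 at an adjusted p under 0.01, 4 with the replicate block, 2 under a block on sex, and 1 to 4 with 1 array left out (1 without control replicate 3). Over all genes, 3630 rose and 3442 fell with array weights, 1068 and 1091 under a block on sex, 2534 and 2605 with the replicate block, and 395 and 406 at an adjusted p under 0.01, while 2729 rose at one under 0.1. With 1 array left out, between 476 and 2663 rose and between 476 and 2879 fell; such fits hold fewer arrays. Among the named genes the replicate block changed the call of Il1r2 and Sigirr and no other. The group difference in Il1rn minus Il1a, which mostly follows Il1rn, lay between 2.70 and 3.48 with 1 array left out, that of Il1rn minus Il1b between 2.71 and 3.64, and that of Il18bp minus Il18 between 0.10 and 0.60. With the replicate numbers as pairs, sign flips over the 3 pairs gave an exact permutation p of 0.25 for each, the smallest they allow. Signal limits the reading of Il1a, Il1f6, Il1rl2, Il18r1 and Il18rap, which lay in or near the dim range. Filters on the mean left out Il1a, Il1b and Il1r2.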
